A study of Mus musculus with 6 samples.

Results

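The anoctamins (Ano, also TMEM16) are a family of 10 membrane protein genes in the mouse, Ano1 to Ano10, and all 10 were found by symbol among the 23420 genes of the count table. The family was chosen by the counts of Ano3 in these cultures, which separated the groups, and the other 9 genes were added as its relatives. The values of Ano3 are therefore given as a description with no test, while the other members were not picked on their own values. The cells were eEnd2, an endothelial line of embryonic mouse origin, stably transfected with human Integrin-β1A that carries GFP in its extracellular part, under a short fragment of the human β-actin promoter with a chicken lysozyme matrix attachment region. In β1-WT-GFP cells the chimera was wildtype, and in β1-K794Q-GFP cells the lysine of the distal NPKY-motif was replaced by glutamine, which mimics its acetylation. Each group, with no untransfected group beside them, had 3 cultures (A, B and C) of FACS-sorted, untreated cells grown to confluence, and total RNA was sequenced after removal of ribosomal RNA. The cells kept their own mouse Integrin-β1, and the study's design text names a GFP-low and a GFP-high sort, with no word on which sort each culture came from. Below, cultures of β1-K794Q-GFP cells are called mutant and those of β1-WT-GFP cells wildtype. The comparison asks which transcripts differ when the mutant replaces the wildtype chimera.

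The totals ranged from 9589826 to 15287191 counts per culture. Counts were scaled with edgeR's TMM factors to normalized counts (CPM, the count scaled to a common library size), and 1 count was worth between 0.0696 and 0.0998 CPM. Likeness within a group varied. Only 65 of the 11608 tested genes lay at least 2-fold apart between wildtype cultures A and B, against 2701 and 2539 between these and culture C, and 903 between mutant cultures A and C against 2000 and 2560 between these and culture B. Counts of wildtype cultures A and B still differed by more than counting error (a chi-square statistic of 10 for each degree of freedom), and they stayed separate samples, as labelled. Both mutant culture B and wildtype culture C also stood apart for several anoctamins below. All 11 endothelial markers examined had counts, though not each in every culture. Their summed level was 6540 to 12152 CPM in β1-K794Q-GFP cells and 7795 to 8892 CPM in β1-WT-GFP cells. Cldn5 had 0 counts in mutant culture B, and 4.73 CPM in wildtype culture C against 267 and 252 in A and B. Vwf had at most 2.40 CPM in any culture. Of 3 blood cell markers, Cd68 had 31.0 to 103 CPM in β1-K794Q-GFP cells and 37.1 to 88.5 CPM in β1-WT-GFP cells, and Ptprc and Itgam, the more defining ones, had at most 4 counts in any culture.

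Anoctamins are proteins of several transmembrane segments that bind calcium ions from the inside of the cell. Ano1 and Ano2 are chloride channels opened by calcium, and several other members, with Ano6 as the best studied, are scramblases, which let phospholipids cross between the leaflets of the membrane and so bring phosphatidylserine to the cell surface. Surface phosphatidylserine on endothelial cells and platelets serves as a platform for clotting factors, and loss of Ano6 function underlies the bleeding disorder Scott syndrome. Ano3 and its closest relative Ano4 are known mainly from the nervous system, and variants of human ANO3 are linked to dystonia.

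Promoter stretches of 4 starts are shown because Ano3 had reads in one group only, its relative Ano4 had none in either, and Ano6 was read in every culture. RefSeq (GRCm38.p6) gives 2 starts of Ano3 on the minus strand of chromosome 2, and the 250 bases before each start are printed 5′ to 3′ in lower case with every CG in capitals. The stretches lie at chr2:110950245-110950494 (Ano3, distal start), chr2:110840060-110840309 (Ano3, internal start), chr10:89257791-89258040 (Ano4, minus strand) and chr15:95790593-95790842 (Ano6, plus strand).
Ano3 distal start: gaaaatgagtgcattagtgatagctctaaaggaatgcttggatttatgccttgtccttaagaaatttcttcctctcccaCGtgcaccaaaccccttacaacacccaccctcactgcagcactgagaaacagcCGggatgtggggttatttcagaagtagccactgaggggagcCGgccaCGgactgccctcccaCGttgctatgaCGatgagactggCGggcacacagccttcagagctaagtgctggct
Ano3 internal start: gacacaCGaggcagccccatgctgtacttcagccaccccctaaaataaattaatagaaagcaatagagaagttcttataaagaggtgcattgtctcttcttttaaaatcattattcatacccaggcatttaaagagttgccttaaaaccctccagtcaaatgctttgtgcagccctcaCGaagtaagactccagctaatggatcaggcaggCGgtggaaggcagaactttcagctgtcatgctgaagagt
Ano4: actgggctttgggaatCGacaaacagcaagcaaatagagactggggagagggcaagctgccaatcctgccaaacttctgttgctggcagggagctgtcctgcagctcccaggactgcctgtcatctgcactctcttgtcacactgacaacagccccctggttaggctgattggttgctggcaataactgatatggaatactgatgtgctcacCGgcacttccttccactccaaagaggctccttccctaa
Ano6: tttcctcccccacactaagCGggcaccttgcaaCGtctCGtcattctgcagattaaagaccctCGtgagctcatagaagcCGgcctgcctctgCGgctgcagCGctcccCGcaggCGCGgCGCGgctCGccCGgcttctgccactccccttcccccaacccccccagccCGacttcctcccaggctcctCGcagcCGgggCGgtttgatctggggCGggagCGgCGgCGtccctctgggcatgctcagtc
These stretches hold 7, 3, 2 and 22 CG pairs. Over the window of 300 bases that also takes in the first 50 transcribed bases, the number of CG was 8 and 4 at the Ano3 starts, 3 at Ano4, 29 at Ano6 and 24 at Ano10, and the median of all 32851 windows of this length was 7. Ano1 had 18, Ano5 15, Ano7 4, and the 3 starts of Ano2 had 10, 14 and 5. Ano1, Ano6 and Ano10, which had counts in every culture, thus had 18 or more, Ano4 and Ano5, with no count in any culture, had 3 and 15, and the Ano3 starts lay within the range of the latter. The number of members is too small for a comparison. Promoters were given for 8 of the 10 members, in 11 windows; Ano8 and Ano9 were not among them.

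Of 5 motifs searched on both strands, the distal Ano3 window held GGAATG (the TEAD motif, 220 bases before the start) and CACGTG (an E-box, 173 bases before it), and the internal window held TATAAA, 175 bases before its start. These motifs were in 14.7%, 7.15% and 13.6% of all windows. The window of Ano10 held CCGGAAG, an ETS motif, 23 bases before the start, which 8.86% of windows hold. TGANTCA (AP-1), in 7.81% of windows, was in no member window, and the other member windows held none of the 5 motifs. The counts are per gene, so which of the Ano3 starts was used was not analysed here. In the GENCODE M21 annotation, used below for positions, the minus-strand genes Ano3, Ano4 and Ano1 run to 110950923, 89344762 and 144751974. These ends lie upstream of the RefSeq windows, so the windows may not cover every start of these genes.

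Ano3 (ENSMUSG00000074968.11) lies on chromosome 2 of GRCm38 from 110655201 to 110950923, on the minus strand, with 7.218 kb of exon in 3 transcripts of the GENCODE M21 annotation. The protein is a scramblase-type anoctamin that also tunes a sodium-activated potassium channel of neurons. It had 615, 239 and 734 counts in mutant cultures A, B and C, and 0 counts in each of wildtype cultures A, B and C. In normalized counts the mutant cultures had 59.1, 23.6 and 63.0 CPM, a mean of 48.6 ± 21.8 (SD, n = 3). Culture B was the lowest of the 3, and the exact Poisson intervals (95%) of B, 20.7 to 26.7 CPM, and of A, 54.6 to 64.0 CPM, did not meet. All 3 cultures lay far above the wildtype cultures, where a count of 0 allows up to 3 counts, between 0.209 and 0.300 CPM per library. Set against the highest of these limits, the mean of Ano3 was at least 162-fold higher in the mutant cultures, at least 78.6-fold with culture B alone, and between at least 138-fold and at least 204-fold when 1 of the mutant cultures was left out. These intervals and limits cover counting error only. In RNA of whole cultures, more cells with Ano3 and more Ano3 RNA per cell cannot be told apart.

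**Figure D1:**
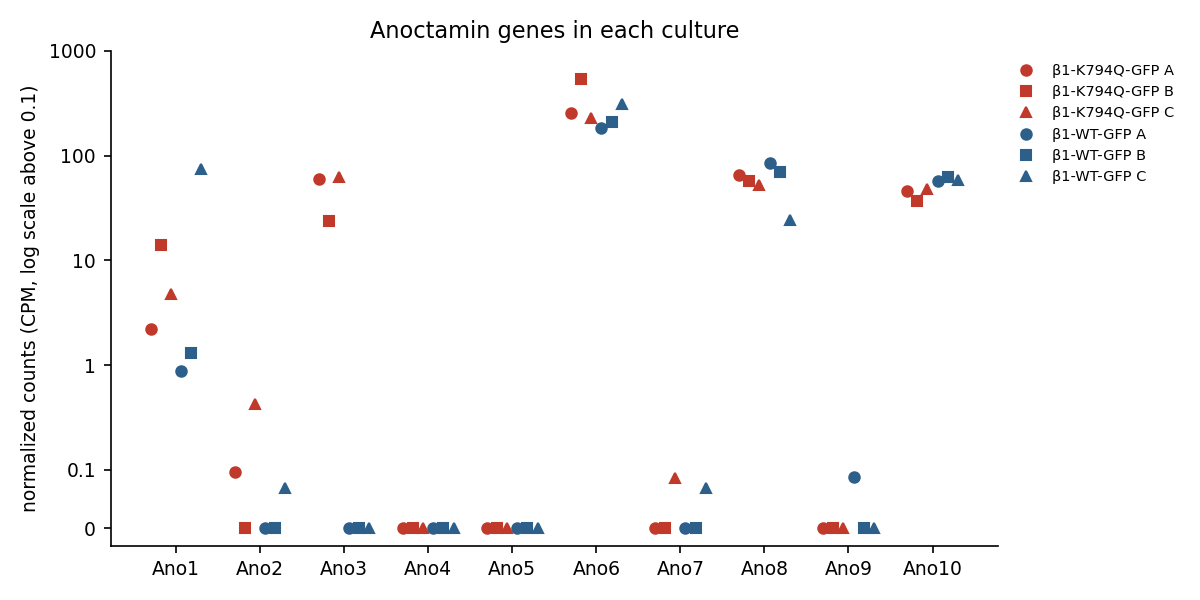
Normalized counts (CPM, log scale above 0.1 and linear below) of the 10 anoctamin genes, with 1 point for each of the 3 mutant cultures (red) and 3 wildtype cultures (blue), and the marker giving the culture letter. Ano3 sits between 23.6 and 63.0 in the red cultures and at 0 in the blue ones, Ano1 is highest in wildtype culture C, and Ano4 and Ano5 are at 0 throughout.

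Muc15, a membrane mucin gene, lies inside the Ano3 gene on the opposite strand (110721340 to 110739527), and shares 61 bases of exon with it. Without the strand setting of the counting, reads of this pair cannot be told apart there; Muc15 itself was listed at 0 counts in all 6 cultures. The 3 nearest genes of the table toward lower coordinates were Slc5a12, a transporter gene 7.42 kb away with 2 counts in wildtype culture C and 0 elsewhere, and Fibin and Bbox1, both at 0 in every culture. The 3 nearest toward higher coordinates, 4930430A15Rik at 211.1 kb and the olfactory receptor genes Olfr1275 and Olfr1276, were at 0 in all 6 cultures as well.
Of the 20 nearest tested genes, 10 to each side, 0 passed both thresholds by edgeR's quasi-likelihood F-test (fold change of at least 2, unadjusted p of at most 0.05), and none reached the second threshold, 0 of 20. All tested genes had a median log2 fold change of -0.02, and 5.19% of them passed both thresholds. The midpoints of the 20 neighbours lay between -4.85 and 3.49 Mb from the lower end of Ano3. The closest on each side were Ccdc34 at -0.56 Mb and Lpcat4 at 1.59 Mb, so the tested genes describe a wide region and not the near surroundings of Ano3. The median of the 20 neighbours was also -0.02. The highest among them was Fmn1, a formin gene, at 3.01 (standard error, SE, 1.59, adjusted p = 0.62 from edgeR's quasi-likelihood F-test), which had 4104 counts in mutant culture B and between 74 and 492 in the other 5. Without Fmn1 the neighbours lay between -0.29 and 0.80.

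**Figure D2:**
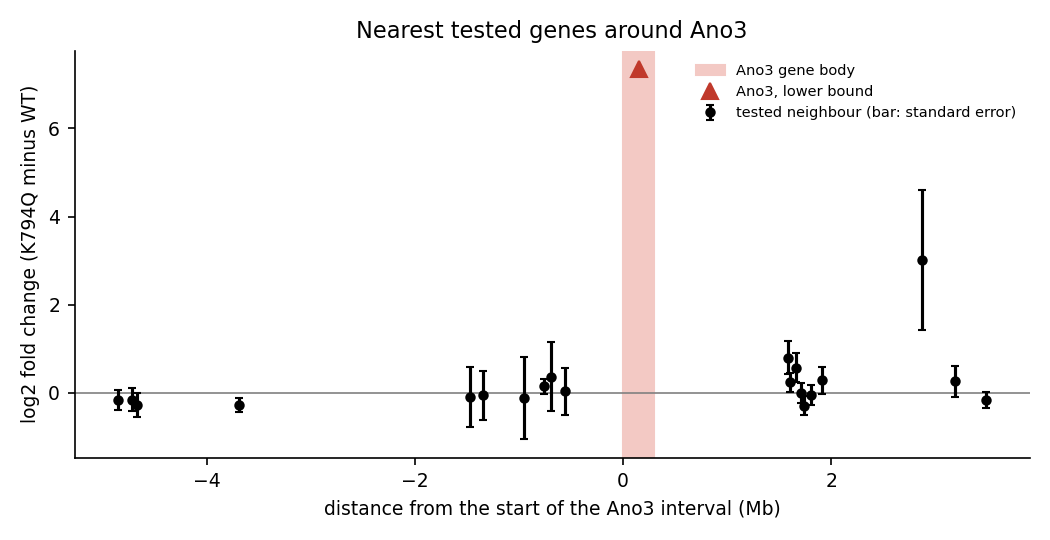
Log2 fold change (β1-K794Q-GFP minus β1-WT-GFP, bars are standard errors) of the 20 nearest tested genes against the distance of their midpoint from the lower end of Ano3 in Mb. Ano3 is drawn as its lower bound of 7.34 over the shaded gene body, and all neighbours except Fmn1 (3.01) lie between -0.29 and 0.80.

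Among the tested genes, 13 had 0 counts in every wildtype culture. The filter asks for counts in 3 cultures, so such a gene could pass it only with counts in each mutant culture. Ano3 was the second of them by its mean and the first by its lowest culture. The first by mean was Ces2e, a carboxylesterase gene, with 188, 81 and 1673 counts in mutant cultures A, B and C.
Over the 6 cultures, the genes most like Ano3 by Pearson's r of log2(CPM + 0.5) were Llgl2 (r = 0.9994), Dzip1l (0.9989), Usp13 (0.9983), Wbscr17 (0.9982) and D7Ertd715e (0.9978), out of 11483 tested genes with a mean of at least 1 CPM. Usp13, a deubiquitinase gene, had 6.73, 4.24 and 9.28 CPM in mutant cultures A, B and C. Wbscr17, which encodes an enzyme that starts O-glycans, had 10.5, 4.83 and 8.07 CPM in these cultures. Both were at 0 in all wildtype cultures, as was D7Ertd715e. Dzip1l, a gene of the primary cilium, had 29.8, 10.4 and 28.2 CPM against 0, 0 and 0.0696. Llgl2, a cell polarity gene, had 11.7, 9.27 and 12.4 CPM against 3.58, 3.69 and 3.69 CPM, so that its pattern but not its range was that of Ano3. An r of at least 0.95 was reached by 138 genes. The 6 points share their libraries and fall into the groups that Ano3 was chosen to separate, so r is a description only.
Of the 7 markers of fibroblast or mesenchymal cells, 1, Prrx1, separated the groups, and it was lower in β1-K794Q-GFP cells. In all, 5 of the 7 had any counts, with Dcn and Lum at 0 in all cultures, and their summed level was 0.591 to 3.65 CPM in β1-K794Q-GFP cells and 84.2 to 194 CPM in β1-WT-GFP cells. Most of the wildtype sum was Prrx1 (183, 193 and 56.5 CPM in A, B and C), a mesenchymal transcription factor gene, with 1, 1 and 0 counts in mutant cultures A, B and C against 2097, 1936 and 812 in wildtype cultures A, B and C. The other 4 markers with counts, Pdgfra, Pdgfrb, Col1a1 and Col3a1, were highest in wildtype culture C and overlapped between the groups; Pdgfra, a receptor gene of mesenchymal cells, had 2.31, 0.296 and 0.945 CPM in the mutant cultures and 0.524, 0.699 and 16.4 CPM in the wildtype cultures. The 5 neuronal markers summed to 6.31 to 8.65 CPM in β1-K794Q-GFP cells and to 16.2 to 280 CPM in β1-WT-GFP cells, with Syt1 at 0 throughout. The wildtype sums were mostly Stmn2, while Snap25 and Rbfox3 had 24 and 33 counts in mutant culture B and at most 1 count in any wildtype culture. The part of these cells or genes in the level of Ano3 was not tested.

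Ano1 (ENSMUSG00000031075.18, chromosome 7, 144588549 to 144751974, minus strand) encodes the calcium-activated chloride channel of secretory epithelia, smooth muscle and pacemaker cells of the gut. It had 2.21, 13.9 and 4.72 CPM in mutant cultures A, B and C against 0.874, 1.30 and 73.9 CPM in wildtype cultures A, B and C. The highest and the lowest cultures of the series were thus both wildtype cultures, and culture C was 56.9-fold above culture B. The 3 mutant cultures lay above wildtype cultures A and B and below culture C.
The log2 fold change of Ano1 was -1.87 (SE 1.67), which was not past the thresholds (adjusted p = 0.809 from edgeR's quasi-likelihood F-test). Without wildtype culture C it was 2.67 (SE 0.92) and passed both thresholds, with an adjusted p of 0.257 from the same test. The adjusted p lay between 0.257 and 0.973 over all alternatives tried.
Some markers of other cell types were also highest in wildtype culture C. The 5 neuronal markers summed to 280 CPM there and to between 6.31 and 21.6 CPM in the other cultures; 4 of them had counts, Syt1 was at 0, and Stmn2 alone had 273 CPM in culture C. Tubb3 was also highest there, but Snap25 and Rbfox3 had 24 and 33 counts in mutant culture B and 1 count each in wildtype culture C. The 4 smooth muscle markers summed to 3.34 CPM in wildtype culture C and to at most 0.601 CPM elsewhere. Of these, Acta2, Cnn1 and Tagln were highest in that culture. Myh11 was lowest there, with 1 count against 4 and 3 in wildtype cultures A and B. The part of these markers in the level of Ano1 was not tested.
Ano2 (chromosome 6, 125690419 to 126040126), the channel of olfactory neurons and photoreceptors, had 1, 0 and 5 counts in mutant cultures A, B and C against 0, 0 and 1 in wildtype cultures A, B and C. It was under the filter on low counts. The 5 counts of mutant culture C correspond to 0.139 to 1.002 CPM (exact Poisson interval), which overlaps the intervals of all the other cultures.

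Ano6 (ENSMUSG00000064210.7, chromosome 15, 95790843 to 95974751, plus strand), the calcium-activated scramblase of platelets and many other cells, was the member with the most reads in every culture, 19455 of them in all. It had 257, 537 and 227 CPM in mutant cultures A, B and C against 183, 210 and 313 CPM in wildtype cultures A, B and C. The means were 340 ± 171 and 235 ± 68.7 CPM (SD, n = 3 each). Within the groups, mutant culture B was 2.22-fold above the mean of A and C, wildtype culture C was 1.59-fold above the mean of its A and B, and the ranges of the groups overlapped. The log2 fold change was 0.53 (SE 0.40) and was not called (adjusted p = 0.76 from edgeR's quasi-likelihood F-test). It was 0.04 without mutant culture B and 0.80 without wildtype culture C, with an adjusted p between 0.413 and 0.986 over all alternatives. In GENCODE M21, 5 genes on the opposite strand overlap Ano6, none of them matched in the count table. A130051J06Rik and Gm49172, which run past its ends, share 214 and 122 bases of exon with it, and the other 3 share none.
The remaining scramblase-type members were at or near 0. Ano4 (chromosome 10, 88948994 to 89344762), the nearest relative of Ano3, and Ano5 (chromosome 7, 51511029 to 51598709), the member of skeletal muscle and bone whose loss causes a muscular dystrophy, had 0 counts in all 6 cultures. A count of 0 allows each of them up to 0.300 CPM in the shallowest library. The 4 skeletal muscle markers examined (Myod1, Myog, Des and Ckm) were at 0 in all cultures too. Ano7 (chromosome 1, 93373930 to 93404303), known from the prostate, had 1 count in mutant culture C and 1 in wildtype culture C. Ano9 (chromosome 7, 141101212 to 141117806), a member of epithelial tissues, had 1 count, in wildtype culture A, and the 4 epithelial markers summed to at most 0.591 CPM, with Epcam and Krt18 at 0. No difference between the groups was detectable for these 4 genes at this depth.
Past both thresholds, 3.48% of all tested genes rose and 1.71% fell. Around Ano4 on chromosome 10, the 20 nearest tested genes had a median log2 fold change of 0.62. All lay between 0.31 and 2.57, and 2 rose past both thresholds. The 20 nearest tested genes of Ano7 on chromosome 1 had a median of -0.54, between -1.59 and 0.08, with 0 past the thresholds. For the other 8 members, the median over the nearest tested genes (13 for Ano1, 20 for the rest) lay between -0.12 and 0.12.

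Ano8 and Ano10 are the members most distant in sequence from the rest of the family. Ano8, which ties the endoplasmic reticulum to the plasma membrane, lies on chromosome 8 (ENSMUSG00000034863.9, 71476019 to 71485963, minus strand). It had 65.4, 57.5 and 52.6 CPM in mutant cultures A, B and C against 84.7, 69.3 and 24.2 CPM in wildtype cultures A, B and C. The mutant cultures were close together, all 3 between the high wildtype cultures A and B and the low culture C, which was 3.18-fold below the mean of A and B. A log2 fold change of -0.02 (SE 0.44) resulted (adjusted p = 0.993 from edgeR's quasi-likelihood F-test). It was -0.38 without wildtype culture C and 0.32 without culture A, so that its sign rested on single cultures.
The 3′ end of Ano8 overlaps that of Dda1, a gene on the opposite strand, over 80 bases, so reads that fall there are uncertain. Dda1 had 67.6 to 94.7 CPM in β1-K794Q-GFP cells and 72.2 to 84.8 CPM in β1-WT-GFP cells, and its wildtype culture C, at 84.8, was the highest of that group where Ano8 was the lowest.
Ano10, the gene of a recessive cerebellar ataxia, lies on chromosome 9 (ENSMUSG00000037949.8, 122175874 to 122294423, minus strand). It had 46.3, 36.9 and 48.0 CPM in mutant cultures A, B and C, a mean of 43.7 ± 5.99 (SD, n = 3), and 56.8, 62.1 and 58.2 CPM in wildtype cultures A, B and C, a mean of 59.0 ± 2.75 (SD, n = 3). Every mutant culture lay below every wildtype culture, and the mean was 1.35-fold higher in the wildtype cultures. Its log2 fold change of -0.43 (SE 0.17) missed the threshold for fold change, and p adjusted over all tested genes was 0.44 by edgeR's quasi-likelihood F-test, and between 0.317 and 0.921 over all alternatives. With each culture left out in turn it stayed between -0.51 and -0.32.

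**Figure D3:**
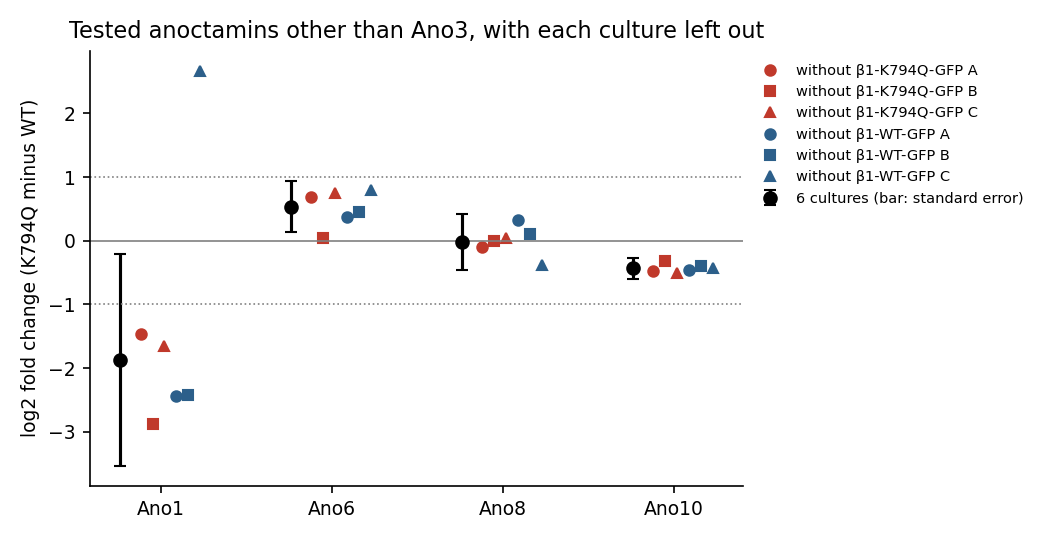
Log2 fold change (β1-K794Q-GFP minus β1-WT-GFP) of the 4 tested anoctamins other than Ano3, from all 6 cultures (black, bars are standard errors) and with each culture left out (coloured). Dotted lines mark a 2-fold change; Ano1 moves from -1.87 to 2.67 without wildtype culture C, while Ano10 stays between -0.51 and -0.32.

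Of the 10 members, 5 passed the filter on low counts (Ano1, Ano3, Ano6, Ano8 and Ano10), Ano3 only through the mutant cultures. One of these 5, Ano3, was past both thresholds, higher in β1-K794Q-GFP cells, and 0 were lower, where 5.19% of all 11608 tested genes passed both thresholds, 3.48% higher and 1.71% lower. Ano3 was chosen on this contrast, so nothing is read from that count. Of the 4 other tested members, 1 (Ano10) had groups that did not overlap, where 16.6% of all tested genes had such groups. By edgeR's quasi-likelihood F-test 0 of these 4 reached an adjusted p of 0.05 or less, against 0.181% of all tested genes. By the same test 1 (Ano10) had an unadjusted p of at most 0.05, at 0.0385, and the share of all tested genes at that cutoff was not computed. This p of Ano10 was 0.0773 with the culture letter as a block and between 0.0453 and 0.123 with single cultures left out. By edgeR's likelihood ratio test it was 0.117. By DESeq2 and by edgeR's likelihood ratio test 0 of the 4 reached an adjusted p of 0.05 or less as well.

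Levels of the members were compared as CPM per kb of exon, with the union of all annotated exons as the length. In β1-K794Q-GFP cells Ano6 was the highest at 27.7 ± 13.9 CPM per kb (SD, n = 3), followed by Ano8 at 8.54 ± 0.939, Ano10 at 7.40 ± 1.01, Ano3 at 6.73 ± 3.01 and Ano1 at 1.11 ± 0.985. Ano6 lay above Ano8 in every culture, Ano8 overlapped Ano10 and Ano10 overlapped Ano3, and every culture had more Ano3 than the highest culture of Ano1. In β1-WT-GFP cells the order was Ano6 at 19.2 ± 5.60, Ano10 at 9.99 ± 0.466, Ano8 at 8.68 ± 4.59 and Ano1 at 4.06 ± 6.73 (SD, n = 3 each), with Ano6 apart from Ano10 and the cultures of the other 3 overlapping in turn. With the longest annotated transcript as the length, an alternative chosen after seeing the data, Ano10 also preceded Ano8 in the mutant cultures (16.5 and 11.9 CPM per kb), and Ano6 was at 69.1 and Ano3 at 7.25.
As a share of the summed level of the family per kb, Ano3 made up 17.5%, 5.11% and 19.9% in mutant cultures A, B and C and 0% in the wildtype cultures. Ano6 made up 44.7%, 68.5% and 42.1% in mutant cultures A, B and C against 40.2%, 45.1% and 50.3% in wildtype cultures A, B and C. In wildtype culture C, Ano1 made up 23.3% and Ano8 6.97%, whereas in wildtype cultures A and B Ano8 made up 33.4% and 26.7% and Ano1 under 1%. The summed level was 46.9, 63.9 and 43.9 CPM per kb in mutant cultures A, B and C against 37.1, 37.9 and 50.8 in wildtype cultures A, B and C. The groups thus overlapped, with wildtype culture C above mutant cultures A and C. Without Ano3 the mutant cultures had 38.7, 60.6 and 35.1, so that mutant culture C lay below every wildtype culture and the groups still overlapped.

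**Figure D4:**
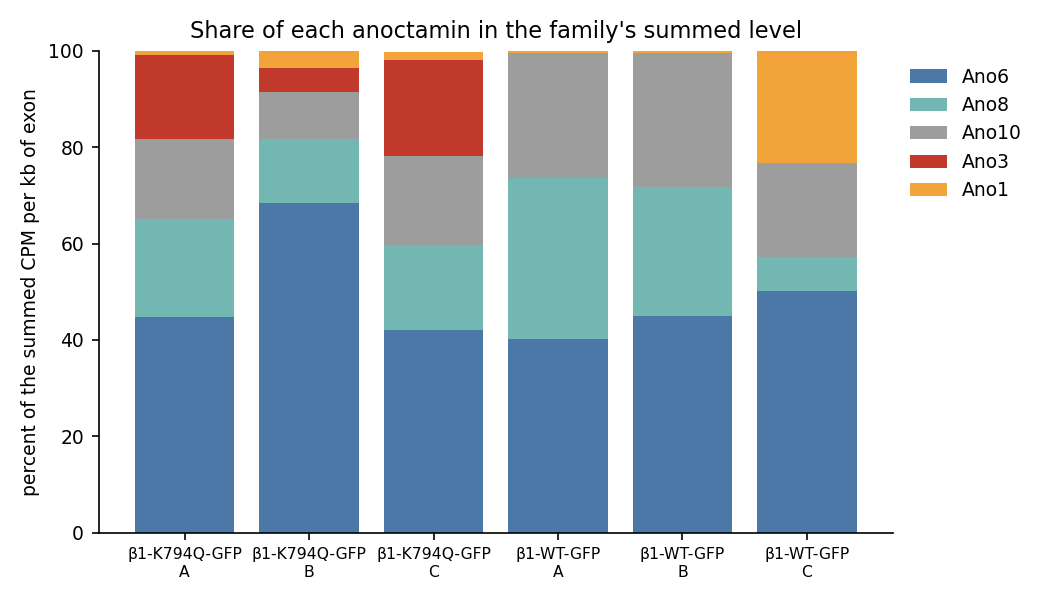
Share of Ano6, Ano8, Ano10, Ano3 and Ano1 in the summed CPM per kb of exon of all anoctamins (percent), with 1 bar per culture. Ano3 takes between 5.11% and 19.9% of the bar in the 3 mutant cultures and none in the wildtype cultures, and Ano1 takes 23.3% in wildtype culture C.

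Gene families that work beside the anoctamins were examined in the same fit. Of 27 other scramblases and flippases, the enzymes that carry phospholipids back to the inner leaflet, 19 were tested. Past both thresholds, 2 rose and 1 fell, where 3.48% and 1.71% of all tested genes did. The list had a median log2 fold change of 0.17 against -0.02 over all tested genes. Atp8a1, a phosphatidylserine flippase, had 125, 211 and 99.9 CPM in mutant cultures A, B and C against 73.3, 78.2 and 43.4 CPM in wildtype cultures A, B and C, with every culture of the first group above the second. This gave a log2 fold change of 1.16 (SE 0.36, adjusted p = 0.323 from edgeR's quasi-likelihood F-test), and 0.80 without mutant culture B and 0.95 without wildtype culture C, where it was no longer past both thresholds. Atp8b1, a flippase of the bile canaliculus, had 37.4, 0.0986 and 78.6 CPM against 1.22, 1.10 and 1.18 CPM, so that mutant culture B was below all wildtype cultures while A and C were far above them. Its log2 fold change was 5.04 (SE 1.66, adjusted p = 0.357 from edgeR's quasi-likelihood F-test, 0.00523 from DESeq2), and with single cultures left out it was past both thresholds 2 times of 6, lost without mutant culture C or any wildtype culture. With the culture letter as a block it was 3.88 and no longer past both thresholds. Xkr5, of the Xk-related family that includes scramblases, was lower, with 1.15, 0.296 and 1.80 CPM against 2.88, 2.40 and 7.44 CPM, or -1.95 on the log2 scale (SE 0.76, adjusted p = 0.447), also called 2 times of 6. Xkr8, the scramblase of apoptotic cells, and Tmem30a, the partner chain of most flippases, had log2 fold changes of 0.51 and 0.43 and did not pass. Vmp1, Plscr2 and Plscr3 of the same list were at -0.75, -0.64 and -0.32 and did not pass either. In these 3 genes every mutant culture lay below every wildtype culture. In Xkr8 and in Plscr1, at 0.28 and also not past the thresholds, every mutant culture lay above every wildtype culture.
Of 27 other chloride channel genes in the table, 17 were tested, with a median log2 fold change of -0.10. Past both thresholds, 1 rose and 0 fell, where 3.48% and 1.71% of all tested genes did. Nothing about either list is read from these small counts. The one that rose was Ttyh1, a member of the Tweety family, with 58.7, 159 and 0.515 CPM in mutant cultures A, B and C against 3.32, 3.20 and 0.139 CPM in wildtype cultures A, B and C. Both groups had a low culture C, the groups overlapped, and Ttyh1 was past both thresholds 1 time of 6 with single cultures left out, with log2 fold changes between 3.77 and 5.64. Lrrc8a, the required subunit of the volume-regulated channel, stood at -0.05 on the log2 scale (SE 0.33).
None of the 11 tested genes of calcium release and entry passed both thresholds by edgeR's quasi-likelihood F-test or by DESeq2. The share of all tested genes at an unadjusted p of at most 0.05 was not computed, so nothing is read from counts at that cutoff. With each tool, 3 of the 11 genes were at or under it. By the F-test these were Itpr1, a calcium release channel, Stim1, the calcium sensor of the endoplasmic reticulum, and Orai1, the pore that Stim1 opens, with log2 fold changes of 0.80, 0.53 and 0.77 and adjusted p values of 0.351, 0.38 and 0.459 from edgeR's quasi-likelihood F-test. The median of the list was 0.30. Of the 7 tested genes of the TMC and TMEM63 families, relatives of the anoctamins, 0 passed by the quasi-likelihood F-test, with 0 at an unadjusted p of at most 0.05, and 1 by DESeq2, where 2 had an unadjusted p of at most 0.05, with a list median of 0.07. Among 5 tested cation-chloride transporters 0 passed by either tool, 0 were at or under an unadjusted p of 0.05, and the median was 0.57. Of the 10 potassium channel genes activated by calcium or sodium, 0 passed the filter on low counts, and their summed level was at most 1.70 CPM in any culture. Kcnt1, the channel that Ano3 tunes in neurons, had 1 count, in wildtype culture B.

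**Figure D5:**
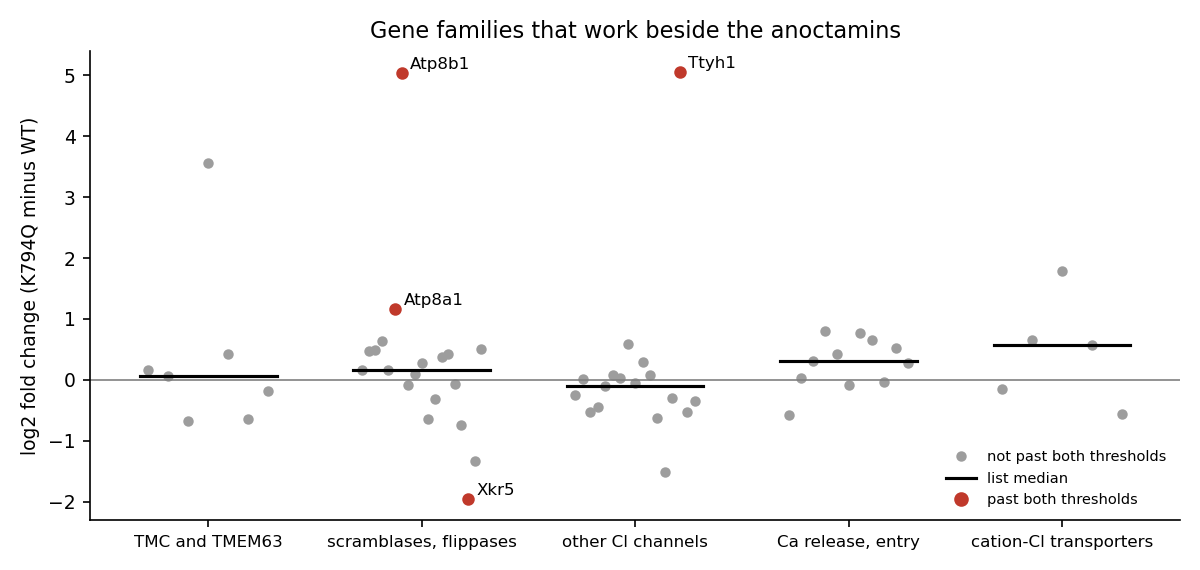
Log2 fold change (β1-K794Q-GFP minus β1-WT-GFP) of the tested genes of 5 related families, with genes past both thresholds in red and the median of each family as a bar. Atp8a1, Atp8b1 and Ttyh1 are higher and Xkr5 is lower, and the family medians lie between -0.10 and 0.57.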

How the data were processed

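RNA of 3 cultures of β1-K794Q-GFP cells and 3 of β1-WT-GFP cells was measured, and groups were taken from the sample titles. The authors deposited counts of reads per gene symbol, not normalized; the submitters' processing notes name STAR 2.7.4a, HTSeq 0.9.1, edgeR 3.38.4 and mm10 (GRCm38), and the annotation and strand setting are not given in the sources used here. The study describes a second sequencing of the same samples, and the labels do not say which of the runs these counts come from. The table had 0 further columns of values. The study's methods describe the cultures of a group as grown from its sorted cells, so that p values measure the spread between cultures and not between transfections.

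In R 4.3.3 with edgeR 4.0.16, filterByExpr kept 11608 genes, TMM scaled the libraries, and the groups were compared with glmQLFit and glmQLFTest (two-sided, no block), with the thresholds of the study's methods (fold change of at least 2, unadjusted p of at most 0.05) and Benjamini-Hochberg adjusted p over all tested genes. A standard error is the log2 fold change divided by the square root of F. The test was first tested on simulated data. Positions and exon lengths came from GENCODE M21, with 21737 symbols matched directly and 1259 by synonym. Named genes were the 10 members, genes of the related lists past both thresholds, the 3 nearest genes on each side of Ano3 and those inside it, the 5 genes most like Ano3, and cell type markers; other genes named were chosen after their values were seen. The members and lists were chosen with earlier results of these data known. The alternatives were RLE scaling, no filter, at least 10 counts in every culture, DESeq2 1.42.0, the likelihood ratio test, a block for the culture letter, and 1 culture left out at a time; another gene length was added after seeing the data. Figures were made in Python 3.11.15 with matplotlib 3.10.9.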

Additional observations from a re-analysis of the deposited data

How the results depend on the processing

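With at least 10 counts required in every culture Ano3 was not tested, and the number of anoctamins past both thresholds was 0. In the other alternatives that number holds Ano3, which was chosen on these cultures, so its call there says nothing about stability. It was 1 to 2 when single cultures were left out, 2 being the value without wildtype culture C, when Ano1 passed as well. The number lower in β1-K794Q-GFP cells was 0 throughout. Over all genes, 603 passed both thresholds, 916 with no filter on low counts, and between 501 and 992 with each culture left out, where the number was 942 without mutant culture B and 992 without wildtype culture C. The log2 fold change of Ano1 ran from -2.88 to 2.67 when single cultures were left out. That of Ano8 lay between -0.38 and 0.32, with a sign that turned without mutant culture B or C or wildtype culture A or B. The log2 fold changes of Ano6 and Ano10 kept their sign in all 12 alternatives. The cause was not tested.

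The culture letter is not named as a shared batch. Deviations of same-lettered cultures from their group means correlated at 0.109, 0.055 and 0.102 over genes for A, B and C. Of the pairs with unlike letters, mutant culture A with wildtype culture B was at 0.113. The rest lay between -0.162 and -0.008. Mutant cultures B and C thus correlated best with the wildtype culture of their own letter, and mutant culture A did not. The main fit had no block because the labels name no pairing, and whether the letters pair the cultures was not tested. With the letter as a replicate block 571 genes passed both thresholds, Ano1 had a log2 fold change of 0.50 and Ano8 of 0.15. The anoctamins at 7 or fewer counts in all cannot be compared at this depth.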
